A study of Mus musculus with 18 samples.

Results

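The replication-dependent core histone genes encode the bulk of histones H2A, H2B, H3 and H4. They were taken by gene symbol alone (symbols of the H2ac, H2bc, H3c and H4c series and the older Hist1h to Hist4h names of the same types). This group of genes was chosen with earlier results of these data known. The E17 table held 57 of them among 32532 genes, namely 17 H2A, 16 H2B, 12 H3 and 12 H4 genes, and the P5 table held 55 among 19450 genes, namely 16 H2A, 15 H2B, 12 H3 and 12 H4 genes. The 2 tables used different gene models, and 48 symbols occurred in both.

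RNA had been sequenced from the dental epithelium of mouse molars, the tissue whose ameloblasts lay down enamel, after enzymatic separation from the dental mesenchyme. The DKO libraries came from mice labelled Hmgn1-/-; Hmgn2-/-, 2 genes of small proteins that bind nucleosomes, and the WT libraries from wild-type mice. How the alleles were made, and whether each library of a group is a different animal, is not given in the sources used here, so p-values measure the spread between libraries, which may be technical. The groups used were DKO and WT at embryonic day 17 (E17) and DKO and WT at postnatal day 5 (P5), 3 libraries each.

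In S phase, these genes are switched on together to package newly made DNA, and their mRNA is destroyed when replication ends. Unlike other mRNA they normally end in a short stem-loop in place of a poly(A) tail, and the stem-loop binding protein SLBP, encoded by Slbp, is needed for their processing and translation. A smaller number of these genes also give polyadenylated transcripts in cells that have left the cell cycle, as described in human and mouse tissues. In the developing molar the epithelium proliferates before birth, and ameloblasts leave the cell cycle as they differentiate.

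The 3′ stem-loop is shown for the members on which the results turn, since it is what sets these transcripts apart from other mRNA. Capitals mark the 16 letters of the stem-loop (GGNNC, then TTTTNAG, then NNCC without a gap, searched on the transcript strand alone), and lower case marks the neighbouring bases in GENCODE M21 transcripts on mm10.
H3c6: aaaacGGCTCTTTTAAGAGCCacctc
H4c9: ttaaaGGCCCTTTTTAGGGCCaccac
H4c6: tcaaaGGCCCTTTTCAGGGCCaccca
Hist1h4m: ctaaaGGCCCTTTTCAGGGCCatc
H4c8: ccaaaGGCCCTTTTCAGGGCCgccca
H2ac7: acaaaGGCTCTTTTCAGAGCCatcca
Hist1h2ap: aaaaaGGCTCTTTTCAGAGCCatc
H2ac18: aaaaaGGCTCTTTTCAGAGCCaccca
The capitals lie at chr13:23561903-23561918 (minus strand) for H3c6 and at chr13:22040966-22040981 (minus strand) for H4c9, in the 3′ part of both transcripts. The letters were present in 39 of the 63 member transcripts, from 37 of the 57 genes, against 98 of 58797 protein-coding transcripts of the annotation (0.167%). All H2A, H2B and H3 transcripts with the letters began them with GGCTC. The H4 transcripts began them with GGCCC (6 with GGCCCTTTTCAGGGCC and 2, H4c9 among them, with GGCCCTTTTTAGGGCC) or, in 2, with GGTCC. Of the transcripts with the letters, 19 ended within 50 bases after them, whereas 15 ran on for more than 300 bases. H3c6 (369 bases after the stem-loop) and H4c9 (330 bases) were among the longer annotated transcripts.

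The promoters of H3c6 and H4c9 are shown because these genes, 1 of H3 and 1 of H4, differed in opposite directions at E17. Each sequence is the 250 bases before the annotated start (RefSeq, GRCm38.p6), with TATAAA and CCAAT of either strand in capitals.
H3c6 promoter: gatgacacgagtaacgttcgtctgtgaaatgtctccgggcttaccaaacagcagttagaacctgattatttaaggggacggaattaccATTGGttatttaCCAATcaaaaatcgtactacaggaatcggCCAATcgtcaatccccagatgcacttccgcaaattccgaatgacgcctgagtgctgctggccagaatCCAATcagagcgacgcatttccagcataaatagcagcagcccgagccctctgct
H4c9 promoter: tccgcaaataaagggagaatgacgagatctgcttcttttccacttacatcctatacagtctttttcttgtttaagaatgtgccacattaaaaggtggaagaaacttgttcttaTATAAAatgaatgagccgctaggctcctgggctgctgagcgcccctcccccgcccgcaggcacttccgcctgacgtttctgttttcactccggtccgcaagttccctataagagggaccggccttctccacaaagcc
The H3c6 promoter (chr13:23562386-23562635, minus strand) held 4 copies of CCAAT and the H4c9 promoter (chr13:22041363-22041612, minus strand) held none. The H4c9 promoter had 1 TATAAA, which began at position -137 from the start. H4c2, H4c6, H4c8 and H4c12, which fell at E17 by the rule given below, also held no CCAAT. The same was true of H4c17, for which Hist1h4m, which fell too, is listed as an older name. H4c1, another that fell, held 1 CCAAT. Of 64 member symbols, 50 had a promoter in the RefSeq table (16 H2A, 14 H2B, 10 H3 and 11 H4 promoters). Among them CCAAT (either strand) stood in 100% of H2A and of H2B promoters, 80% of H3 promoters and 27.3% of H4 promoters, against 33.8% of 32851 promoters of the table. TATAAA (either strand) stood in 37.5% of H2A, 42.9% of H2B, 40% of H3 and 54.5% of H4 promoters, against 12.4% of all. A match counted anywhere in the 250 bases, whatever its distance from the start. Several H2A and H2B windows overlap, as those of H2ac11 (chr13:22042950-22043199) and H2bc11 (chr13:22042948-22043197) do. A match there could count for both types, so the shares of H2A and H2B are not independent. The octamer ATTTGCAT (either strand), known from histone H2B promoters, stood in 42.9% of H2B and 31.2% of H2A promoters and in 0 of 10 H3 and 0 of 11 H4 promoters, against 1.6% of all.

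The members lie in clusters. At E17, 47 of the 57 were on chromosome 13, between positions 21715763 and 23762386, and 10 were on chromosome 3, between 96219865 and 96270132 (mm10). H3c6 occupies chr13:23561534-23562369 and H4c9 chr13:22040636-22041362, both on the minus strand and annotated as protein-coding. Because copies are nearly identical, a read often fits several of them. Counting stretches of 31 bases in the E17 transcripts, a median of 67.2% of a member's sequence also occurred in another gene, with a range of 2.56% to 100%, and 42 of 57 members shared over 50%. Values of single copies are therefore uncertain, H4c9 (35.6% shared) less than H3c6 (84.4%). The deposited values had been divided between copies in fractions: H3c11 stood at 1.66e-22 RPKM in DKO replicate 1 at P5, far under the value of a single read.

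Values are RPKM (reads per kilobase of transcript, scaled to library size), summed per gene. Per the file headers the libraries had 66.0 to 100 M alignments at E17 and 39.2 to 72.7 M at P5. One read on a transcript of 500 bases was worth 0.0481 to 0.0717 RPKM at E17 and 0.0647 to 0.119 RPKM at P5. A gene was tested at a stage if 3 or more of its 6 libraries had 1 RPKM or more. The test was done with limma on log2(RPKM + 1), with Benjamini-Hochberg adjustment over all genes tested, 13728 at E17 and 11423 at P5. The median log2 fold change (DKO over WT) of all tested genes was 0.25 at E17 and -0.25 at P5. Scaling each library to the same upper quartile moved it to 0.02 and -0.03. In what follows a gene "rose" or "fell" only if both the deposited and the scaled values put it under an adjusted p of 0.05, with like sign. Scaled fold changes are relative to that shift. Fold changes on the log2(RPKM + 1) scale understate the change of low genes.

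The targeted genes differed in how far they were lowered. Hmgn2 was at 0.839, 0.953 and 0.975 RPKM in the E17 DKO libraries, against 354, 344 and 320 RPKM in WT, and at 9.05, 5.44 and 10.4 RPKM in the P5 DKO libraries, against 183, 166 and 166 RPKM in WT. Hmgn1 averaged 90.6 ± 3.83 RPKM in DKO and 128 ± 5.19 RPKM in WT at E17, and 71.5 ± 1.51 RPKM in DKO and 185 ± 5.55 RPKM in WT at P5 (SD, n = 3 each). Hmgn1 mRNA was thus present in every DKO library. Epithelial markers were expressed in every library. Krt5, a keratin of basal epithelium, was at 1156, 1259 and 1243 RPKM in DKO and 1175, 995 and 1105 RPKM in WT at E17, and at 1863, 1910 and 1894 RPKM in DKO and 2284, 1830 and 1956 RPKM in WT at P5. Epcam, an epithelial adhesion protein, was at 68.8, 78.1 and 72.2 RPKM in DKO and 44.9, 40.8 and 41.5 RPKM in WT at E17. Mesenchymal markers (7 genes, Col1a1 and Vim among them) summed to 2450 to 2663 RPKM in DKO and 4132 to 4511 RPKM in WT at E17, and to 830 to 1184 RPKM in DKO and 1870 to 2077 RPKM in WT at P5, so mesenchymal RNA was present in every library; 4 of the 7 fell at E17 and 3 of 7 at P5. Red cell markers (7 genes) ran the other way at E17, with 10412 to 21298 RPKM in DKO and 5771 to 7229 RPKM in WT (4 of 7 rose), and at P5 had 517 to 1186 RPKM in DKO and 1349 to 1480 RPKM in WT (3 of 5 tested fell). Of the 3 odontoblast markers, both of those tested at E17 fell, with summed levels of 5.71 to 9.49 RPKM in DKO and 15.3 to 17.4 RPKM in WT, and all 3 fell at P5, with 181 to 195 RPKM in DKO and 352 to 543 RPKM in WT. For comparison, 3.09% of all genes fell and 5.97% rose at E17, and 26.1% fell and 7.40% rose at P5. The part of these cells in the histone values was not tested. In bulk tissue, fewer cells of a type and less RNA per cell cannot be told apart.

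One E17 library stood apart in these genes. DKO replicate 1 had more mRNA than both other DKO replicates for 47 of the 57 members and for 37 of the 45 tested. As deposited, 10.1% of all tested genes were ordered that way, a share not computed after scaling. DKO replicate 1 also stood apart over all tested genes. On the first principal component (74.4% of the variance) it lay at -14.2, against -26.7 and -28.4 for DKO replicates 2 and 3. The WT libraries lay at 20.9 to 25.2. Over all transcripts, DKO replicate 1 summed to 489814 RPKM, against 515783 and 518245 RPKM in DKO replicates 2 and 3. DKO replicates 2 and 3 were below the lowest WT library for 43 and 45 of the 57 members, both of them for 42. Of the 45 tested members they were below it for 34 and 36, beside 6.66% and 5.91% of all tested genes. DKO replicate 1 was below the lowest WT library for 18 of the 45, beside 12.4% of all tested genes. It was within the WT range for 17 and above it for 10. The same library also stood apart in non-coding RNAs that carry no poly(A) tail, a list put together after the values were seen. Rn7sk, the 7SK RNA that restrains transcription elongation, was at 409, 66.8 and 103 RPKM in DKO replicates 1, 2 and 3, against 535, 463 and 434 RPKM in WT. Rmrp, the RNA of an endoribonuclease that processes ribosomal RNA, was at 143, 16.5 and 25.2 RPKM in DKO, against 168, 171 and 171 RPKM in WT. The 8 listed RNAs present summed to 2032, 325 and 403 RPKM in DKO and to 2791, 2375 and 2428 RPKM in WT. DKO replicate 1 was thus below every WT library, but nearer to WT than DKO replicates 2 and 3. Of the 8, 7 were lower as deposited and 3 fell, against 3.30% and 3.09% of all genes. As these RNAs were listed after their values were seen, that comparison is no test. At P5, the 3 listed RNAs present summed to 4459, 5050 and 6272 RPKM in DKO and to 4712, 7991 and 10140 RPKM in WT. There 2 of the 3 were lower as deposited and 0 fell, against 58.2% and 26.1% of all genes. What part the recovery of RNA without a poly(A) tail has in the histone values was not tested, and results at E17 are given with and without this library.

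**Figure D1:**
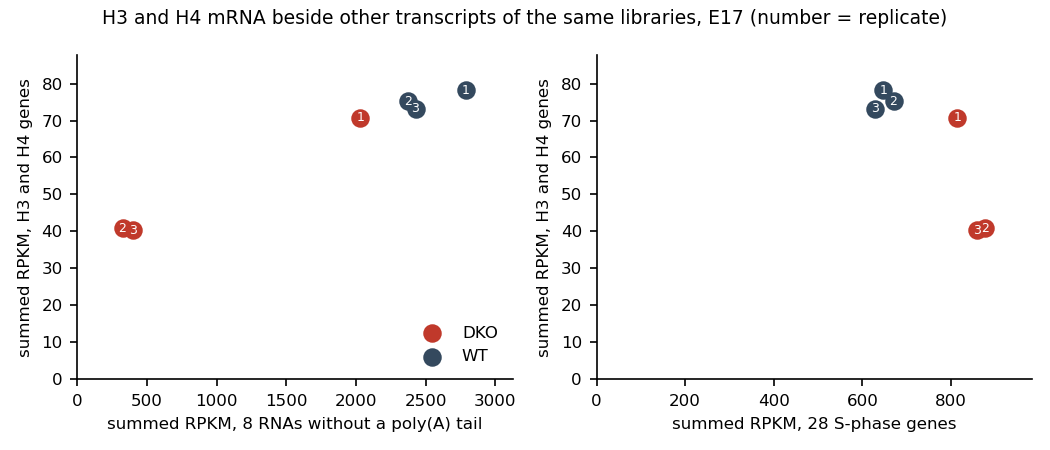
Each point is an E17 library (red DKO, dark WT, numbered by replicate); the y axis is the summed RPKM of the 24 H3 and H4 genes, and the x axis is the summed RPKM of 8 non-coding RNAs without a poly(A) tail (left) or of 28 S-phase genes (right). The 8 RNAs were listed after their values were seen. DKO replicates 2 and 3 are low on the y axis and on the left x axis. DKO replicate 1 lies below the WT libraries in both but is the DKO library nearest to them. All 3 DKO libraries are above WT for the S-phase genes.

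At E17 many H3 and H4 genes, and several H2A and H2B genes, had less mRNA in DKO than in WT, while H4c9 had more. Of the 45 members tested, 18 fell and 2 rose; over all genes, 3.09% fell and 5.97% rose. As deposited, without scaling, 25 members were lower and 5 higher, against 3.30% and 56.3% of all genes tested. After scaling 18 were lower and 2 higher, against 6.21% and 5.94%. None of the 45 passed the filter through 1 genotype alone. Without the filter on low values, when 32532 genes entered the fit, only 7 members were lower as deposited and 3 higher, beside 456 and 5861 of all genes. Among the calls then lost were those of H2ac4 (limma adjusted p = 0.133), H2ac20 (0.0641), H4c6 (0.108), Hist1h4m (0.0977) and H4c8 (0.073), while H3c6 (0.0321), H3c11 (0.0433) and H4c9 (0.0131) passed. The median log2 fold change of that fit was -0.45 over all 57 members and 0.04 over all genes. By type, 5 of 11 tested H3 genes, 6 of 11 H4, 5 of 14 H2A and 2 of 9 H2B genes fell. As deposited, every DKO library was below every WT library in 17 of the 45 (3.83% of all genes tested) and above in 5 (60.9%). After scaling, 24 were below (16.5%) and 2 above (17.7%).

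These counts depended on single libraries. Without DKO replicate 1, 34 members were lower as deposited and 32 fell, against 3.23% and 3.03% of all genes. The genes tested stayed those that passed the filter with all 6 libraries. Some members thus reached 1 RPKM in WT alone once DKO replicate 1 was left out. For such members the filter favoured a fall, and the 34 and 32 include some of them. Among them were H3c6 (0.714 and 0.521 RPKM in DKO replicates 2 and 3) and H3c11 (0.545 and 0.786 RPKM). Without DKO replicate 2, 16 were lower and 10 fell, against 3.04% and 2.53%, and without DKO replicate 3, 13 and 9, against 2.40% and 1.89%. Without WT replicate 1, 15 were lower as deposited and 10 fell, against 2.92% and 2.52%. Without WT replicate 2, 20 and 11 did, against 3.26% and 2.85%, and without WT replicate 3, 15 and 9, against 2.35% and 1.72%. Under every one of these leave-outs 7 members fell, namely H2ac7, H2ac12, H2ac18, H2bc12, H3c6, H3c11 and H4c8, and 0 rose. For H3c6 and H3c11 this includes the leave-out of DKO replicate 1, in which they reached 1 RPKM in WT alone. The other falls and both rises were lost, in at least 1 scaling, without at least 1 library.

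**Figure D2:**
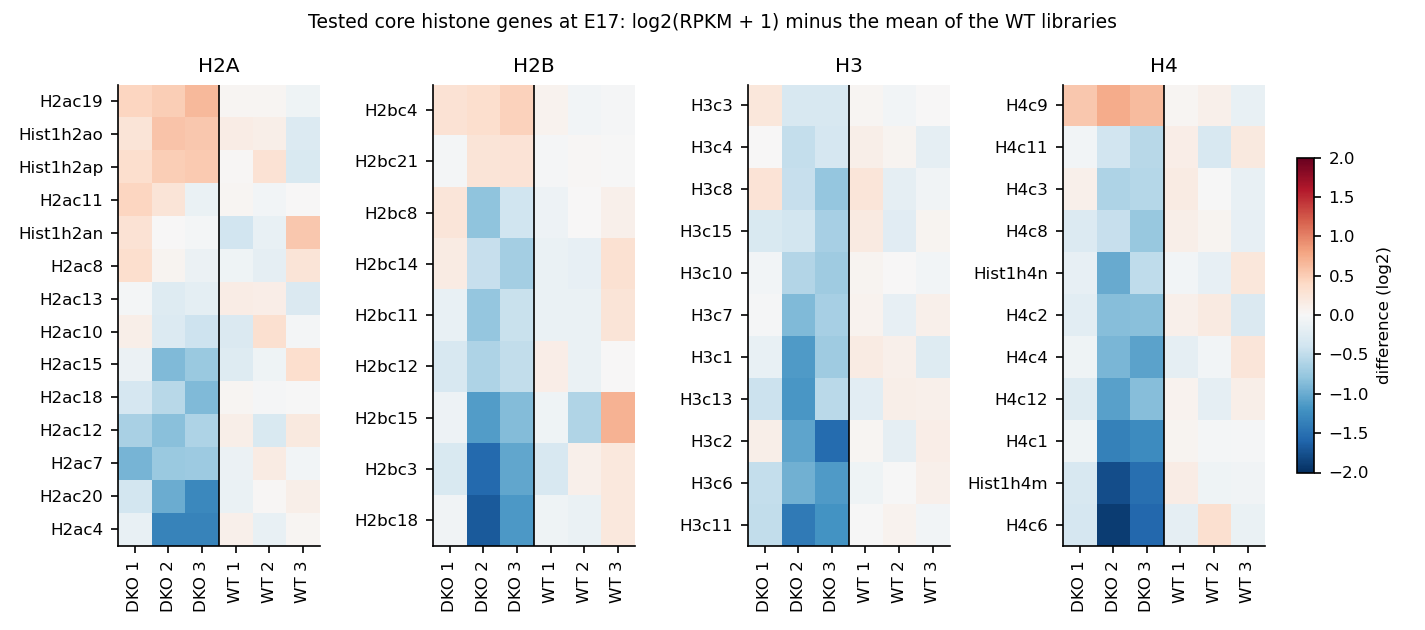
Heat map of the 45 tested members at E17, a row per gene grouped by histone type and a column per library (DKO left, WT right); colour is log2(RPKM + 1) minus the WT mean of the gene, blue lower and red higher. Columns DKO 2 and DKO 3 are blue for most rows and DKO 1 is paler, while H4c9, H2ac19 and H2bc4 are red in all 3 DKO columns.

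Among the H3 genes, H3c6 was at 1.40, 0.714 and 0.521 RPKM in the DKO libraries, against 2.13, 2.32 and 2.56 RPKM in WT. The groups did not overlap, and DKO replicate 1 was the nearest to WT. H3c6 fell by 0.86 ± 0.16 on the log2 scale (SE; limma adjusted p = 0.00296; scaled -1.01, adjusted p = 0.0068). H3c11 was at 1.92, 0.545 and 0.786 RPKM in DKO, against 3.06, 3.31 and 2.93 RPKM in WT (log2 fold change -1.03, limma adjusted p = 0.00371; scaled -1.19). Of the 3 H3 genes with the highest levels, H3c3 was at 6.93, 4.46 and 4.44 RPKM in DKO and 6.01, 5.56 and 5.84 RPKM in WT, and H3c2 at 4.09, 1.28 and 0.623 RPKM in DKO and 3.83, 3.18 and 4.19 RPKM in WT, and neither passed (limma adjusted p = 0.391 and 0.0621). In DKO replicate 1, H3c3 was above all WT libraries and H3c2 within their range, while the other DKO libraries were below them. The third, H3c10, was at 3.85, 2.34 and 2.09 RPKM in DKO and 4.21, 4.09 and 3.83 RPKM in WT and fell (scaled limma adjusted p = 0.0346), but passed in neither scaling without any one library other than DKO replicate 1 (as deposited 0.0582 to 0.105). H3c13 and H3c15 also fell, without scaling by 0.71 and 0.44 on the log2 scale, with DKO below WT in every library. H3c15 did not pass as deposited without DKO replicate 3 or WT replicate 1 or 3 (limma adjusted p = 0.0747, 0.0672 and 0.0615), nor H3c13 after scaling without WT replicate 2 or 3 (0.0633 and 0.0932).

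The H4 genes all encode the same protein, yet 1 of them rose while 6 fell. H4c9 was at 11.3, 13.1 and 12.05 RPKM in DKO, against 7.71, 8.06 and 6.64 RPKM in WT, with all 3 DKO libraries above WT. It rose by 0.64 ± 0.09 (SE; limma adjusted p = 0.0013) and by 0.40 after scaling (0.0157), and did not pass after scaling without DKO replicate 3 (0.0602) or WT replicate 3 (0.0505). H4c8, the next in level, was at 7.16, 6.10 and 4.81 RPKM in DKO, against 9.60, 9.17 and 7.75 RPKM in WT. It fell by 0.50 ± 0.13 (SE; limma adjusted p = 0.00962; scaled -0.73). The largest falls were those of H4c6, at 3.08, 0.384 and 0.744 RPKM in DKO and 3.55, 5.44 and 3.71 RPKM in WT (log2 fold change -1.27, limma adjusted p = 0.0126), and Hist1h4m, at 3.65, 0.702 and 1.04 RPKM in DKO and 5.46, 4.47 and 4.54 RPKM in WT (-1.20, 0.0107). Both were low in DKO replicates 2 and 3 and close to WT in DKO replicate 1, and neither passed after scaling without any one library other than DKO replicate 1 (limma adjusted p = 0.060 to 0.116). H4c1, H4c2 and H4c12 fell as well, from WT means of 3.58 to 3.97 RPKM.

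The H2A total was carried by 2 near-identical genes. Hist1h2ap was at 396, 443 and 451 RPKM in DKO, against 317, 383 and 254 RPKM in WT, and Hist1h2ao at 134, 167 and 163 RPKM in DKO, against 124, 122 and 92.9 RPKM in WT. They share 93.4% and 93.8% of their sequence with each other, and their sum was 584 ± 46.8 RPKM in DKO and 431 ± 79.7 RPKM in WT (SD, n = 3 each). Both were higher as deposited (limma adjusted p = 0.0218 and 0.0142) but not after scaling (0.397 and 0.338). As deposited, Hist1h2ap did not pass without DKO replicate 2 or 3 or WT replicate 3 (0.053, 0.0726 and 0.0707), nor Hist1h2ao without DKO replicate 3 (0.0531). Of the low H2A genes, H2ac7 was at 1.05, 1.34 and 1.36 RPKM in DKO, against 2.60, 3.38 and 2.75 RPKM in WT (log2 fold change -0.80 ± 0.10, SE; limma adjusted p = 0.0011). H2ac12 was at 2.8995, 2.41 and 2.99 RPKM in DKO, against 5.59, 3.94 and 5.99 RPKM in WT (-0.70, 0.00319). In these 2 genes, unlike the other 16 that fell, DKO replicate 1 was not the highest DKO library. H2ac4 and H2ac20 fell with DKO replicate 1 the highest of the DKO libraries, H2ac4 at 3.27, 0.877 and 0.876 RPKM in DKO and 4.08, 3.29 and 3.86 RPKM in WT.

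H2ac18 and H2ac19 are copies whose E17 transcripts share all of their 31-base stretches with other annotated genes. H2ac18 was at 11.7, 9.91 and 7.69 RPKM in DKO, against 15.5, 14.7 and 14.8 RPKM in WT, and H2ac19 at 12.8, 13.45 and 15.1 RPKM in DKO, against 9.63, 9.63 and 8.67 RPKM in WT. One fell (limma adjusted p = 0.00448) and the other rose (0.00179; scaled 0.0455, passing under none of the 6 leave-outs after scaling). Summed, the pair was at 23.6 ± 0.872 RPKM in DKO and 24.3 ± 0.787 RPKM in WT (SD, n = 3 each), a difference smaller than the spread between libraries. The opposite calls are therefore uncertain.

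H2bc4 held the largest share of the H2B total. It was at 24.8, 25.6 and 27.9 RPKM in DKO, against 21.2, 19.3 and 19.8 RPKM in WT, higher as deposited (log2 fold change 0.36 ± 0.07, SE; limma adjusted p = 0.00357) but not after scaling (0.11, 0.332). H2bc21 had 3.36, 4.36 and 4.37 RPKM in DKO and 3.41, 3.54 and 3.43 RPKM in WT, did not pass, and its sign turned with scaling (0.17 as deposited, -0.04 scaled). H2bc12 was at 2.36, 1.74 and 1.97 RPKM in DKO, against 3.57, 2.80 and 3.20 RPKM in WT, and fell (-0.47, 0.00538). H2bc3 fell too, with 2.43, 0.439 and 1.07 RPKM in DKO and 2.40, 3.54 and 3.90 RPKM in WT, but its groups overlapped and it did not pass after scaling without DKO replicate 2 or 3 or WT replicate 2 or 3 (limma adjusted p = 0.065, 0.115, 0.0986 and 0.143). H2bc18 had 2.89, 0.282 and 0.847 RPKM in DKO and 2.86, 2.75 and 3.73 RPKM in WT, and passed as deposited only (0.0324; scaled 0.0706).

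The sums by type showed the same contrast. The H3 genes summed to 27.3, 12.996 and 13.2 RPKM in the E17 DKO libraries, against 30.6, 28.6 and 29.3 RPKM in WT, and the H4 genes to 43.5, 27.9 and 27.1 RPKM in DKO, against 47.6, 46.6 and 43.8 RPKM in WT. No DKO library reached the WT range in either sum, and DKO replicate 1 was the nearest to it in both. H2B summed to 48.4, 37.8 and 42.7 RPKM in DKO, against 44.2, 42.6 and 50.7 RPKM in WT, with overlapping groups. H2A summed to 587, 656 and 657 RPKM in DKO, against 498, 562 and 407 RPKM in WT. Without Hist1h2ao and Hist1h2ap, the H2A sum was 57.1, 47.1 and 43.9 RPKM in DKO and 57.3, 56.9 and 60.1 RPKM in WT, and the sum of all core histones 176, 126 and 127 RPKM in DKO and 180, 175 and 184 RPKM in WT. The direction of the full sum of core histones, 727 ± 18.1 RPKM in DKO and 610 ± 75.2 RPKM in WT (SD, n = 3 each), turned after scaling, to 663 ± 10.1 RPKM in DKO and 668 ± 76.2 RPKM in WT.

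**Figure D3:**
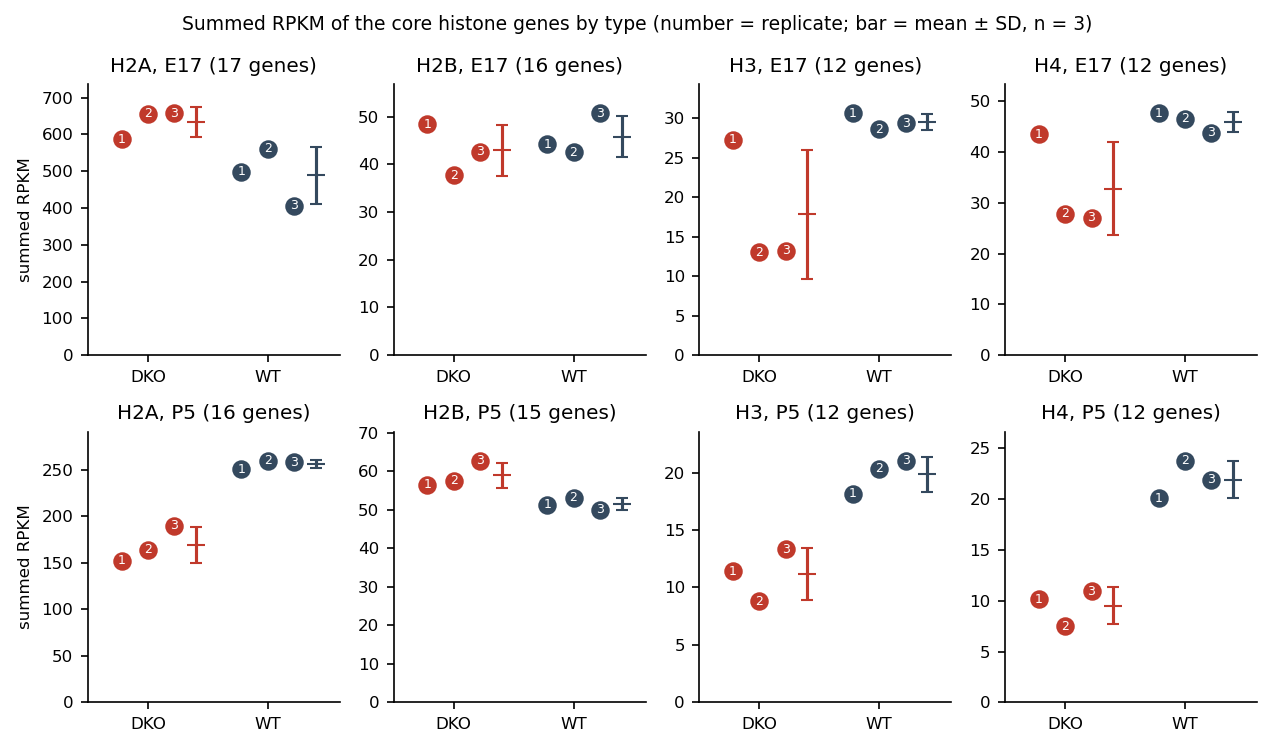
Summed RPKM of the H2A, H2B, H3 and H4 genes in each library at E17 (upper row) and P5 (lower row), DKO red and left, WT dark and right, numbered by replicate, with mean ± SD (n = 3). H3 and H4 sums are lower in every DKO library than in every WT library at both stages; at E17 this gap is small for DKO replicate 1, and H2B sums overlap at E17 and are higher in DKO at P5.

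At P5 most members were near or under the limit of the test. The 55 members included 39 with a mean under 1 RPKM, and 17 were tested, of which 3 passed the filter through WT alone. Levels at the 2 stages come from tables made with different gene models and were not compared with each other. Of the 17, 6 fell and 3 rose, against 26.1% and 7.40% of all genes; as deposited 10 were lower and 3 higher, against 58.2% and 7.36% of all genes tested. After scaling 6 were lower and 3 higher, against 26.0% and 19.7%. As deposited, every DKO library was below every WT library in 10 of the 17 (61.8% of all genes tested) and above in 2 (8.66%). After scaling, 7 were below (31.4%) and 3 above (24.5%). The 3 members that passed the filter through WT alone were H4c4, H4c12 and H4c17. The filter favoured a fall for them, and all 3 were among both sets of 10. H4c4 was also among the 6 that fell, and H4c17 was not tested after scaling. Without any filter 18 members were lower as deposited and 2 higher, beside 6979 and 861 of all genes, and the median log2 fold change was -0.31 over all 55 members and -0.12 over all genes. Without 1 library at a time, 4 to 6 fell and 2 or 3 rose, against 20.2% to 24.9% and 6.09% to 8.52% of all genes, with 4 falling without DKO replicate 2 or WT replicate 2 or 3 and 2 rising without DKO replicate 1 or 3 or WT replicate 1. In P5 DKO replicates 1, 2 and 3, 11, 11 and 10 of the 17 tested members were below the lowest WT library. The shares of all tested genes were 70.3%, 72.8% and 69.6%.

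H4c9, which rose at E17, fell at P5. It was at 2.04, 2.56 and 3.27 RPKM in DKO, against 6.61, 6.94 and 5.98 RPKM in WT. No DKO library came near WT, and the log2 fold change was -1.06 ± 0.11 (SE; limma adjusted p = 3.87e-05; scaled -0.86, 0.000662). H3c6 was at 0.466, 0.288 and 0.434 RPKM in DKO, against 0.688, 0.576 and 0.929 RPKM in WT, too low to be tested, with the DKO libraries below WT. H4c4 was at 0.672, 0.148 and 0.643 RPKM in DKO and 2.28, 1.75 and 3.05 RPKM in WT and fell by 1.18 on the log2 scale (limma adjusted p = 0.000166), passing the filter through WT alone, as did H4c12 and H4c17, which were lower as deposited. The RefSeq table lists Hist1h4m among the older names of H4c17. H4c8 was at 1.85, 2.48 and 2.92 RPKM in DKO and 3.25, 3.06 and 3.49 RPKM in WT, and passed as deposited only (0.022; scaled 0.337), and not without DKO replicate 1 or WT replicate 1 or 3 (0.0873, 0.0587 and 0.0792).

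**Figure D4:**
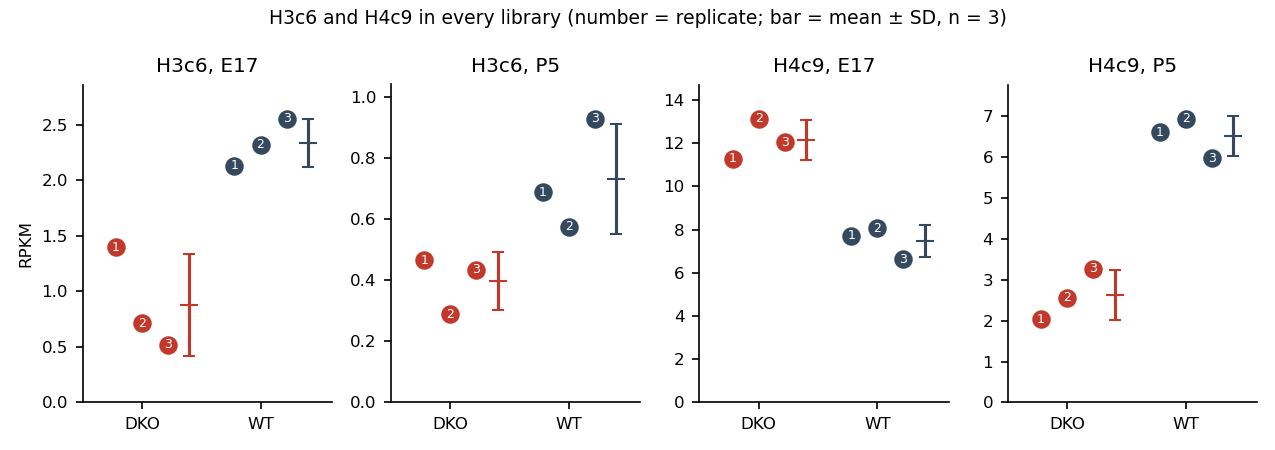
RPKM of H3c6 and H4c9 in every library at E17 and P5, DKO red and left, WT dark and right, numbered by replicate, with mean ± SD (n = 3). H3c6 is lower in DKO at both stages (not tested at P5), and H4c9 is higher in DKO at E17 and lower in DKO at P5.

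The abundant H2A genes of P5 went apart from each other. H2ac23 was at 53.0, 74.4 and 77.1 RPKM in DKO, against 158, 148 and 144 RPKM in WT. It fell by 1.14 ± 0.12 (SE; limma adjusted p = 2.97e-05; scaled -0.89). H2ac24 was at 9.93, 3.19 and 9.84 RPKM in DKO, against 13.2, 29.2 and 35.6 RPKM in WT (-1.66, 0.00326), and did not pass after scaling without DKO replicate 2 (0.0658) or WT replicate 2 or 3 (0.0656 and 0.0884). The RefSeq table lists Hist1h2ao and Hist1h2ap as older names of these 2 genes, which share them in part. At P5 the pair summed to 75.8 ± 12.1 RPKM in DKO and 176 ± 4.18 RPKM in WT (SD, n = 3 each). H2ac18 was at 80.0, 73.8 and 87.6 RPKM in DKO, against 64.0, 67.9 and 67.2 RPKM in WT, and rose (log2 fold change 0.27 ± 0.07, SE; limma adjusted p = 0.00475; scaled 0.52). Summed with its copy H2ac19, it was at 88.6 ± 8.34 RPKM in DKO and 72.5 ± 2.91 RPKM in WT, and here the sum kept the direction. H2ac11 fell, with 0.228, 0.708 and 1.27 RPKM in DKO and 1.78, 2.01 and 1.58 RPKM in WT, but after scaling passed only with all libraries or without DKO replicate 3.

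H2bc4 was at 52.1, 53.2 and 56.4 RPKM in DKO, against 41.9, 44.8 and 40.8 RPKM in WT. It rose by 0.34 ± 0.06 (SE; limma adjusted p = 0.000631; scaled 0.58), with every DKO library above every WT library, and the H2B sum was 56.5, 57.5 and 62.7 RPKM in DKO, against 51.3, 53.1 and 50.01 RPKM in WT. H2bc21 was at 1.65, 1.36 and 1.55 RPKM in DKO and 2.37, 2.0 and 2.28 RPKM in WT, lower as deposited (0.00425) but not after scaling (0.0822). H2bc8 (0.740, 0.911 and 1.10 RPKM in DKO and 1.39, 1.59 and 0.347 RPKM in WT) did not pass. The H3 calls at P5 rest on copies again: H3c14 fell, at 2.05, 1.61 and 4.91 RPKM in DKO and 10.04, 9.15 and 9.73 RPKM in WT (-1.56, limma adjusted p = 0.000236), and H3c15 rose, at 6.43, 5.04 and 5.90 RPKM in DKO and 2.20, 5.16 and 4.52 RPKM in WT. The groups of H3c15 overlapped, and it did not pass as deposited without DKO replicate 1 (0.109), DKO replicate 3 (0.0715) or WT replicate 1 (0.0958). Their sum was 8.65 ± 2.09 RPKM in DKO and 13.6 ± 1.18 RPKM in WT (SD, n = 3 each).

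By type at P5, the H4 genes summed to 10.1, 7.49 and 10.9 RPKM in DKO, against 20.1, 23.8 and 21.9 RPKM in WT, and the H3 genes to 11.4, 8.81 and 13.3 RPKM in DKO, against 18.1, 20.3 and 21.02 RPKM in WT. Both sums separated the genotypes. H2A summed to 152, 164 and 190 RPKM in DKO, against 251, 260 and 258 RPKM in WT, but without H2ac23 and H2ac24 to 89.2, 86.5 and 103 RPKM in DKO, against 79.7, 82.8 and 78.9 RPKM in WT. All core histones without that pair summed to 172 ± 15.5 RPKM in DKO and 174 ± 5.63 RPKM in WT (SD, n = 3 each), a difference smaller than the spread between libraries as deposited. Scaling changed this. After upper quartile scaling the sum was 188 ± 21.2 RPKM in DKO and 159 ± 12.7 RPKM in WT. After median-of-ratios scaling it was 192 ± 14.7 RPKM in DKO and 156 ± 9.18 RPKM in WT. Every DKO library was above every WT library under both. Under upper quartile scaling the gap was very small, with DKO replicate 2 at 171.471 RPKM and WT replicate 2 at 171.374 RPKM.

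The 13 members tested at both stages were compared for their genotype effect. The effect differed between E17 and P5 for 5 of them (38.5%), against 80.7% of the 11049 genes tested at both stages; the stages share no library, but their medians shifted in opposite directions. H4c9 (E17 minus P5: 1.70 on the log2 scale, adjusted p = 3.31e-08 from limma's estimates and errors), H2ac18 (-0.86, 6.47e-05) and H3c15 (-0.95, 0.00153) also passed after scaling, where 39.5% of all genes did, and H2ac11 (0.91) and H2bc21 (0.52) did not. H2bc4 and H4c8 passed after scaling only.

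**Figure D5:**
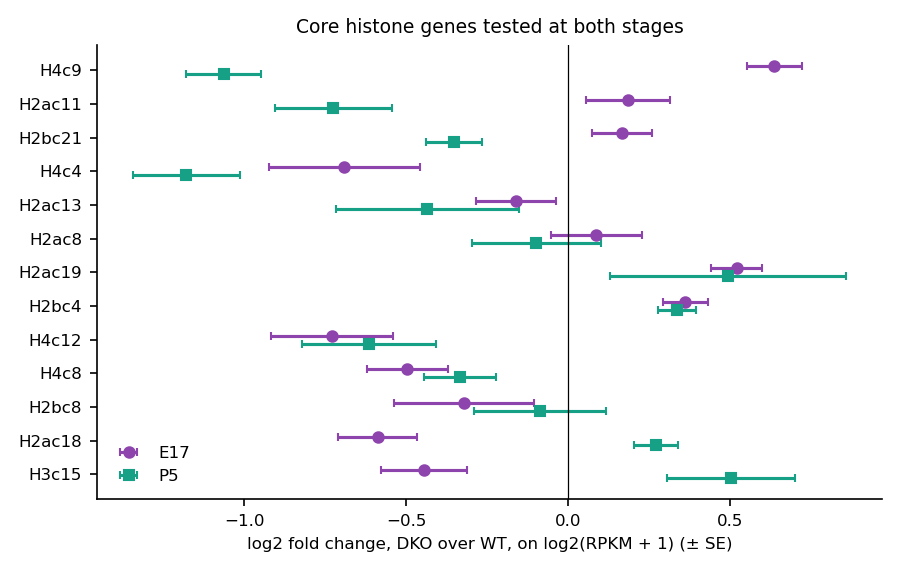
Log2 fold change (DKO over WT, on log2(RPKM + 1), ± SE) of the 13 members tested at both stages, E17 as circles and P5 as squares, ordered by their difference. H4c9 is right of 0 at E17 and left of it at P5, H2ac18 and H3c15 are the reverse, and H2bc4 is right of 0 at both.

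Other genes of histone supply were followed in lists. Beside them, 3.09% of all genes fell and 5.97% rose at E17, and 26.1% fell and 7.40% rose at P5. The replication-dependent linker histones H1f1 to H1f6 compact the nucleosome array and share the stem-loop end. At E17, 3 of the 4 tested fell and 0 rose: H1f1 was at 2.47, 0.685 and 0.875 RPKM in DKO, against 3.73, 3.34 and 3.57 RPKM in WT (log2 fold change -1.03, limma adjusted p = 0.0059), H1f5 at 2.33, 0.643 and 1.20 RPKM in DKO, against 3.41, 3.28 and 3.66 RPKM in WT (-0.96), and H1f4 fell by 0.71. DKO replicate 1 was again the nearest to WT. H1f2, the most abundant of them, was at 24.4, 24.9 and 25.2 RPKM in DKO and 22.7, 20.2 and 19.3 RPKM in WT, higher as deposited only (0.25; scaled 0.00). At P5 H1f2 rose, at 100, 96.6 and 108 RPKM in DKO, against 46.7, 49.3 and 49.0 RPKM in WT (1.05; scaled 1.30), while H1f3 and H1f4 fell (-1.25 and -0.98). H1f2 and H2bc4 are among the genes for which polyadenylated transcripts have been described in differentiated cells. Whether the transcripts measured here carried a poly(A) tail was not tested.

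The replacement variants, most of which are made outside S phase from ordinary polyadenylated mRNA, are given for comparison. Of 12 tested at E17, 5 rose and 0 fell, against 5.97% and 3.09% of all genes. All 12 were higher as deposited, as were 56.3% of all genes tested. Their median log2 fold change was 0.51, and 0.25 after scaling. H1f0, a linker variant of differentiating cells, was at 238, 248.8 and 253 RPKM in DKO, against 169, 155 and 159 RPKM in WT (0.61; scaled 0.35), and H2az1, a variant of promoters, rose by 0.61 (scaled 0.34), as did Cenpa, the centromeric H3 (0.53). At P5, 2 rose and 4 fell, against 7.40% and 26.1% of all genes. H1f0 was at 338 to 347 RPKM in DKO and 207 to 233 RPKM in WT and rose (0.64; scaled 0.89) with H3f3b, an H3.3 gene (0.31), and H2ax, a variant of DNA repair, H2az1, Macroh2a2 and Cenpa fell (H2ax -0.87).

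Genes of replication and division are given beside the core histones, with no test between the groups. Of all genes, 5.97% rose and 3.09% fell at E17, and 56.3% were higher as deposited. The shares at P5 were 7.40% and 26.1%. Of 28 S-phase genes tested at E17, 5 rose and 0 fell (25 higher as deposited), Fen1, which trims Okazaki fragments, at 18.9, 19.3 and 18.6 RPKM in DKO and 12.7, 12.95 and 11.95 RPKM in WT (0.56; scaled 0.31). In this list all 3 DKO libraries were alike, summing to 814, 878 and 859 RPKM, against 648, 670 and 629 RPKM in WT. Of 12 G2/M genes, 3 rose and 0 fell at E17, Ccnb1, Ccnb2 and Plk1, which drive mitosis. At P5, 16 of 25 S-phase genes fell and 0 rose, with sums of 113 to 117 RPKM in DKO and 172 to 190 RPKM in WT. All 11 tested G2/M genes fell at P5, Mki67, a marker of cycling cells, at 2.27, 2.38 and 2.45 RPKM in DKO, against 6.55, 5.47 and 5.54 RPKM in WT (-1.02). Ameloblast markers moved the other way there, with 4 of 5 rising and sums of 196583 to 235390 RPKM in DKO and 107364 to 128364 RPKM in WT. The part of cell makeup in the P5 histone values was not tested.

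Factors that make histone mRNA were followed as well. Of 20 tested genes for its transcription and 3′ processing, 0 rose and 0 fell at E17. As deposited 16 were higher, as were 56.3% of all genes tested. At P5 1 rose and 10 fell, against 7.40% and 26.1% of all genes. Slbp was at 5.02, 5.06 and 4.28 RPKM in the P5 DKO libraries, against 9.69, 10.6 and 9.41 RPKM in WT (log2 fold change -0.92; scaled -0.70), and Ncbp2, a cap-binding subunit, fell by 0.96. Of the histone chaperones and assembly factors, 0 of 22 tested rose or fell at E17 (18 higher as deposited), and 1 of 20 rose and 5 fell at P5, shares near those of all genes, Nasp, a carrier of H3 and H4, by 0.56. The median log2 fold change was 0.30 and 0.35 for these lists at E17, beside 0.25 over all tested genes, and -0.41 and -0.32 at P5, beside -0.25.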

How the data were processed

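Total RNA depleted of ribosomal RNA was sequenced, per the labels' protocols, from dental epithelium separated with dispase; the submitters' processing notes name Partek and mm10. Besides expression, the authors deposited the count of alignments per library, per the file headers. For the aligner, annotation version and strandedness, nothing is given in the sources used here. The authors deposited transcript values that behave as RPKM, a unit read from the values and not stated; 12 of the 18 libraries were used, since the P0 table held no column of these genes.

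RPKM was summed per gene symbol. Genes with at least 1 RPKM in at least 3 of 6 libraries were tested within each stage with limma 3.58.1 (R 4.3.3, trend) on log2(RPKM + 1), DKO against WT, with Benjamini-Hochberg adjustment over all genes tested. A gene "rose" or "fell" where it passed 0.05 in the same direction as deposited and after upper quartile scaling, a rule chosen after values were seen. Stage differences used the difference of the fold changes over the root of their summed squared errors, adjusted over all genes tested at both stages. Type sums were given no test. The method was tested on simulated data.

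The members, gene lists and tests were chosen with earlier results of these data known. Named are H3c6 and H4c9, the 10 largest rises and falls per stage among members past the threshold, the 3 highest members of each type, and up to 4 genes with the smallest p of each list; a few more were named after their values were seen. Steps in the low values gave 27.9 to 41.6 M reads per library at E17 and 16.8 to 30.9 M at P5, but only 83.1% to 85.8% and 50.1% to 56.3% of low values came out whole within 0.1 read, so no counts were recovered and no count test was run. Alternatives were upper quartile and median-of-ratios scaling, a pseudocount of 0.1, no filter on low values, limma fitted without a trend, the highest transcript of a symbol, a replicate block and leaving out each library.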

Additional observations from a re-analysis of the deposited data

Results flagged for a closer look

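The genotype effect of 5 core histone genes differed between the stages as deposited, by the test of the difference of log2 fold changes (E17 minus P5, on log2(RPKM + 1)). They were 5 of the 13 members tested at both stages, against 80.7% of the 11049 genes so tested; after upper quartile scaling 5 of the 13 differed, against 39.5% of all genes. H4c9 differed by 1.70, with all 3 DKO libraries above WT at E17 and all 3 below WT at P5. H2ac18 differed by -0.86 and H3c15 by -0.95, both lower in DKO at E17 and higher at P5; each has a near-identical copy, and the sum of H3c14 and H3c15 was lower in DKO at both stages. H2ac11 differed by 0.91 and H2bc21 by 0.52, and neither passed after upper quartile scaling (adjusted p = 0.0846 and 0.328 from limma's estimates). The tables of the stages were made with different gene models, and the part of that in these differences was not tested.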

How the results depend on the processing

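Scaling moved most counts. At E17, 7735 genes were higher and 453 lower as deposited, 814 and 850 after upper quartile scaling, and 1041 and 1005 after median-of-ratios scaling; at P5, 841 were higher and 6645 lower, then 2246 and 2964, and 3136 and 2558. Members higher at E17 numbered 5 as deposited, 2 under either scaling and 3 with no filter; members lower numbered 25 at E17 and 7 with no filter, and 10 at P5, 6 under either scaling and 18 with no filter. Leaving out 1 library gave 13 to 34 members lower and 4 to 6 higher at E17, and 5119 to 8879 genes higher at E17.

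The log2 ratio of summed RPKM moved under upper quartile and median-of-ratios scaling for H2A at E17 (0.374 as deposited, 0.110 and 0.104) and P5 (-0.603, -0.352 and -0.293), for H2B at E17 (-0.092, -0.355 under both) and P5 (0.194, 0.445 and 0.506) and for all core histones at P5 (-0.493, -0.242 and -0.183); H4 at P5 moved to -0.896 under median-of-ratios scaling. All core histones at E17 turned from 0.253 to -0.010 and -0.016. H2bc21 at E17 turned to -0.042 and -0.047, and H2bc8 at P5 to 0.037 and 0.069, and ranged from -0.382 without WT replicate 3 to 0.091 without WT replicate 2 (0.032 without WT replicate 1). Beyond what each setting does to library size or to the genes tested, the cause was not tested.

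Replicate numbers did not pair the libraries: deviations of same-numbered libraries correlated at -0.02, 0.22 and -0.02 at E17 and -0.22, -0.07 and 0.04 at P5. With the replicate block 5 members were higher and 24 lower at E17, and 2 and 10 at P5; with upper quartile scaling and the block, added after seeing the data, 1 member was higher at E17 and 6 lower at P5, and 572 genes were higher at E17, 1925 higher and 2557 lower at P5. Members under 1 RPKM rest on few reads, which limits their precision.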
